A study of Mus musculus with 29 samples.

Results

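Neutrophils of the blood were compared between mice taken 14 days after an experimental stroke and mice taken 2 days after a sham operation. The series holds 29 Drop-seq libraries of brain and blood; Drop-seq captures single cells with barcoded beads in droplets and reads the 3′ ends of their transcripts. Of these, 7 blood libraries entered the comparison, 4 of sham at day 2 and 3 of stroke at day 14, and 4 blood libraries of stroke at day 2 shared the fit. Cells that the authors had annotated as Neu were summed per library, which gave 5451 neutrophils in the sham libraries and 2922 in the day 14 libraries. All mice of the 3 blood groups were male C57BL/6J, 8 to 10 weeks old, and each library held the blood of 2 pooled mice. Stroke was made by blocking the middle cerebral artery for a time and then letting blood return. Red cells were lysed and then depleted with a Ter-119 antibody, and every blood sample was handled with Brilliant Blue G, a P2X7 blocker, and actinomycin D, an inhibitor of transcription. Blood was drawn from sham mice at day 2 only, so stroke and the longer time since surgery cannot be told apart at day 14. The p-values below measure the spread between libraries of pooled blood, not between single mice.

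Neutrophils are short-lived granulocytes that leave the bone marrow, circulate for hours to days and enter injured tissue. They carry granule proteins made during maturation in the marrow, and in blood they keep a small amount of messenger RNA that includes abundant S100a8 and S100a9 transcripts, which encode the subunits of calprotectin. After ischaemic stroke they are known as early responders, in blood and in the injured brain.

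The neutrophils of 1 library summed to between 243732 and 2263733 counts in sham and between 212122 and 609562 counts at day 14. The 15 markers of the neutrophil identity list together reached 217075 to 401257 CPM (counts relative to the TMM-corrected sum of the library) in sham and 98580 to 192381 CPM at day 14. Markers of other leukocytes stayed low. Monocyte markers summed to 399 to 822 CPM in sham and 275 to 720 CPM at day 14, T cell markers to 4.40 to 37.8 and 18.7 to 34.0 CPM, and NK cell, dendritic cell, platelet, red cell, eosinophil and basophil markers to at most 42.0 CPM each in these libraries. B cell markers summed to 0 to 118 CPM in sham and to 142 to 261 CPM at day 14, without overlap. Most of these sums came from Ighm, the heavy chain of IgM and the 1 B cell marker tested. Of the 8 B cell markers, 3 were at 0 in all 7 libraries. At 0 in the same way were 4 of the platelet, 2 of the red cell and 1 each of the NK cell, dendritic cell and basophil markers. Their part in the results was not tested. Sham replicate 1 stood apart in mitochondrial RNA: mt-Rnr2, a mitochondrial ribosomal RNA, measured 0.550 CPM there and 6882 to 10687 CPM in the other sham libraries. It was also the deepest of the 7 libraries, and results are given without it below. Of 55 pairs of blood libraries, 41 shared cell barcodes, at most 7 barcodes per pair.

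Between stroke day 14 and sham, 296 of 4944 tested genes differed, which is 5.99% (edgeR quasi-likelihood test, Benjamini-Hochberg adjusted p under 0.05, called below). Of these, 108 genes were higher at day 14 (2.18% of those tested) and 188 were lower (3.80%). In all, 245 of the 296 genes differed by more than 1 on the log2 scale, and in 275 of them no day 14 library overlapped a sham library. Over all tested genes, 904 (18.3%) had no such overlap. Across the 4944 genes the log2 fold changes had a median of 0.02. When libraries were scaled by their totals without TMM, it was 0.36, and 392 genes (7.93%) were called, 293 higher and 99 lower; all 296 genes kept their direction. The balance of higher against lower genes therefore depended on the scaling. The count was smaller without single libraries, at 107 (2.21%) when sham replicate 1 was left out and at 128 (2.44%), 143 (2.75%) and 83 (1.60%) when day 14 replicate 1, 2 or 3 was. The deposited tables carry run codes of series 18 and series 19, and within the libraries of each series alone 115 (2.12%) and 80 (1.84%) genes were called. Series 18 holds 1 day 14 library, which that fit assumes to vary like the libraries of the other groups, so the 115 have no replicate check at day 14. At day 2, against the same sham libraries, no gene was called by edgeR in neutrophils (0.00%), with 209 genes at an unadjusted p under 0.05. DESeq2 called none there either, with 158 genes at such a p; by edgeR at day 14 that number was 1001.

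**Figure D1:**
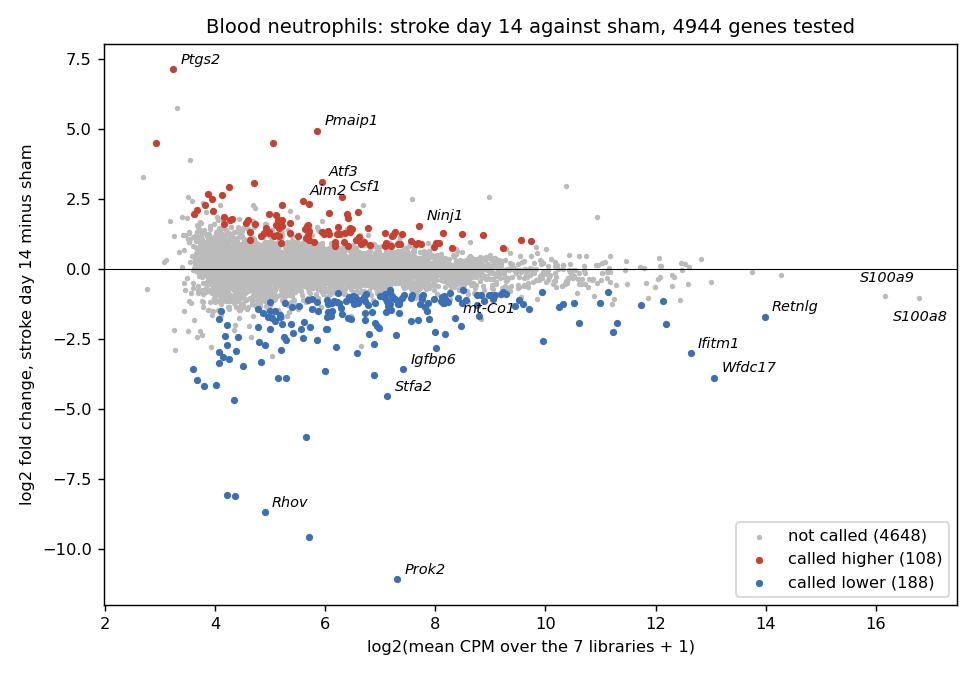
Log2 fold change of stroke day 14 minus sham (vertical) against log2(mean CPM + 1) over the 7 libraries, 1 point for each of the 4944 genes tested, with called genes in red (108 higher) and blue (188 lower). Prok2 and Rhov, which had no count at day 14, lie lowest among the labelled genes, and the abundant Wfdc17 and Ifitm1 lie far below 0.

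The 12 genes with the largest rise, and the 12 with the largest fall described after them, were taken from called genes without overlap of libraries and with a mean of at least 20 CPM. Some of those that rose act in cell stress and cell death. Pmaip1 encodes NOXA, a BH3-only protein that promotes apoptosis by binding MCL1. It measured 1.10, 0, 8.45 and 12.6 CPM in the 4 sham libraries and 124, 106 and 147 CPM in the 3 day 14 libraries. All day 14 libraries were above all sham libraries, which is 4.94 ± 0.68 on the log2 scale (± SE; adjusted p from edgeR 0.0011). Atf3, a transcription factor induced by many cell stresses, measured 10.4, 17, 8.45 and 29.4 CPM in sham and 122, 106 and 128 CPM at day 14 (3.13 ± 0.49 on the log2 scale, edgeR adjusted p 0.002). The lowest day 14 library held several times the level of the highest sham library for both genes. Aim2, a sensor of DNA in the cytosol that assembles an inflammasome, measured 10.4, 13.6, 15.8 and 33.6 CPM in sham and 109.8, 60.7 and 86.8 CPM at day 14 (2.45 ± 0.38, edgeR adjusted p 0.002). Ninj1 encodes ninjurin 1, a membrane protein that ruptures the plasma membrane of dying cells. Its levels were 57.7, 50.9, 163 and 202 CPM in sham and 362, 271 and 351 CPM at day 14 (1.56 ± 0.38, edgeR adjusted p 0.024). Sham replicates 1 and 2, of run code series 18, lay well below sham replicates 3 and 4, of series 19. The log2 fold change of Ninj1 was 2.68 within series 18, which holds 1 day 14 library. Within series 19 it was 0.78 (edgeR adjusted p 0.18). The Ninj1 call was lost when sham replicate 1 or 2 or day 14 replicate 1 or 3 was left out (edgeR adjusted p 0.053 to 0.095). The calls of Pmaip1, Atf3 and Aim2 held without any single library. Within series 19 their log2 fold changes were 3.68, 3.02 and 1.76 (edgeR adjusted p 0.0053, 0.0079 and 0.080), so Aim2 was not called there.

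Csf1, which encodes the macrophage growth factor M-CSF, rose from 16.5, 32.2, 18 and 42 CPM in the sham libraries to 122, 96.6 and 223 CPM at day 14 (2.58 ± 0.43 on the log2 scale, edgeR adjusted p 0.0028). Day 14 replicate 3 was the highest, and all 3 libraries were above sham. Tec, the founding kinase of the Tec family, measured 12.1, 27.1, 43.3 and 29.4 CPM in sham and 55.8, 96.6 and 90.5 CPM at day 14, and Mpzl3, a membrane protein of the immunoglobulin superfamily, 9.89, 20.4, 15.8 and 25.2 and 43.2, 43.6 and 83 CPM. Both rose without overlap of libraries, as their choice required, by 1.57 and 1.76 on the log2 scale (edgeR adjusted p 0.024 and 0.017).

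The other genes of the highest 12 act in the nucleus, in translation or in metabolism. Eif3a, a subunit of translation initiation factor 3, measured 31.3, 71.2, 30.6 and 29.4 CPM in sham, where replicate 2 stood above the rest, and 124, 137 and 169.8 CPM at day 14. Mtdh, which encodes metadherin, a protein of the endoplasmic reticulum and nucleus, measured 26.9, 44.1, 57 and 37.8 CPM in sham and 194, 159 and 155 CPM at day 14. Ctc1, a subunit of the CST complex at telomeres, measured 7.15, 11.9, 14.8 and 37.8 and 48.6, 57.6 and 56.6 CPM. In all of these the day 14 libraries lay above the sham libraries, as their choice required. Pgp, which encodes phosphoglycolate phosphatase, measured 10.4, 1.70, 24.3 and 16.8 CPM in sham and 41.4, 54.5 and 64.1 CPM at day 14, and the zinc finger gene Zfp53 11.5, 5.09, 13.7 and 16.8 and 34.2, 31.2 and 45.3 CPM. The log2 fold changes were 2.04 for Mtdh, 1.98 for Pgp, 1.93 for Ctc1, 1.81 for Eif3a and 1.65 for Zfp53, with edgeR adjusted p of 0.0096, 0.024, 0.016, 0.009 and 0.024. The calls of Pgp, Ctc1, Zfp53, Tec and Mpzl3 were lost without sham replicate 1 and again without day 14 replicate 3, those of Pgp, Ctc1, Zfp53 and Tec also without day 14 replicate 2, and those of Pgp and Zfp53 also without day 14 replicate 1 (edgeR adjusted p 0.057 to 0.10). Mtdh missed the threshold without day 14 replicate 1 (edgeR adjusted p 0.0501), and Eif3a kept its call without any single library.

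**Figure D2:**
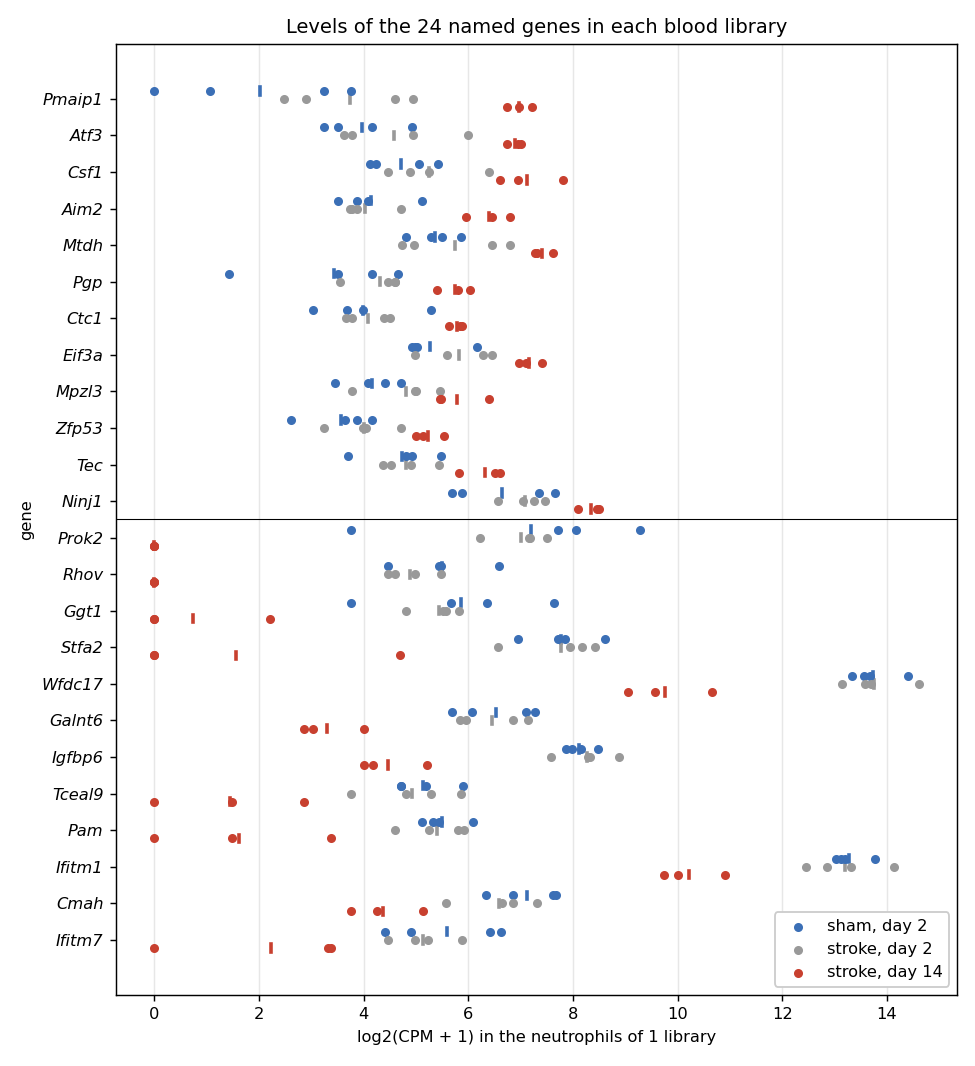
Level of the 24 genes with the largest changes, as log2(CPM + 1) on the horizontal axis, with 1 point per library for sham day 2 (blue), stroke day 2 (grey) and stroke day 14 (red), and a bar at each group's mean. The 3 red points lie beyond all 4 blue points in each of the 24 genes, as the choice of genes required, and Prok2 and Rhov sit at 0 at day 14.

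Among the genes that fell, some were no longer found. Prok2 encodes prokineticin 2, also called Bv8, a secreted peptide made by neutrophils that attracts myeloid cells. It measured 618, 209, 266 and 12.6 CPM in sham, or 1502 counts over the 4 libraries, and had 0 counts in all 3 day 14 libraries, at least 204-fold lower against a floor of 3 counts over the group (edgeR adjusted p 0.0025). Sham replicate 1 gave 1124 of these counts, and without it the bound was at least 104-fold. Sham replicate 4, the shallowest sham library, was far below the other sham libraries. Rhov measured 95.6, 42.4, 43.3 and 21 CPM in sham and 0 at day 14, at least 33.2-fold lower and, without sham replicate 1, at least 19.5-fold (edgeR adjusted p 0.0013 with all libraries). Ggt1, the gamma-glutamyltransferase that breaks down extracellular glutathione, measured 199, 81.4, 49.7 and 12.6 CPM in sham and 3.60, 0 and 0 CPM at day 14. That is 460 counts against 2, a ratio of 93.6 after scaling (95% counting interval 25.8 to 775; edgeR adjusted p 0.0028). Without sham replicate 1 the ratio was 40.4 (95% counting interval 10.9 to 338), from 98 counts against 2. For all 3 genes the day 14 groups did not overlap with sham, as their choice required, and the calls held without any single library.

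The fall also reached abundant transcripts. Wfdc17, a small secreted protein with a whey acidic protein domain, measured 21774, 13007, 12054 and 10336 CPM in sham and 1618, 754 and 532 CPM at day 14. The difference was -3.88 ± 0.46 on the log2 scale (edgeR adjusted p 0.00059), and the highest day 14 library held far less than the lowest sham library. Igfbp6, a binding protein of insulin-like growth factor 2, measured 356, 283, 233 and 252 CPM in sham and 36, 17.1 and 15.1 CPM at day 14 (-3.57 ± 0.36, edgeR adjusted p 0.00015). Its sham libraries lay close together. Galnt6, which starts mucin-type O-glycans, measured 154, 137, 66.6 and 50.4 CPM and 7.20, 6.23 and 15.1 CPM, and Cmah, the hydroxylase that makes N-glycolylneuraminic acid, 203, 197, 115 and 79.8 and 18, 12.5 and 34 CPM. Pam, the enzyme that amidates peptides, measured 67.1, 42.4, 39.1 and 33.6 CPM in sham and 1.80, 9.35 and 0 CPM at day 14. Tceal9 measured 58.8, 35.6, 25.4 and 25.2 and 1.80, 6.23 and 0 CPM. Galnt6, Cmah, Pam and Tceal9 fell, with log2 fold changes of -3.65, -2.99, -3.32 and -3.47 (edgeR adjusted p 0.002, 0.002, 0.0039 and 0.0096). The Tceal9 call was lost without day 14 replicate 1 (edgeR adjusted p 0.064), and the others held without any single library. Without day 14 replicate 2 the estimates of Pam and Tceal9 were -5.17 and -4.86.

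Stefin A genes had lower levels at day 14. Stefins are small inhibitors of cysteine cathepsins, and the mouse has a cluster of closely related stefin A genes on chromosome 16. The promoters of 4 of them are shown because the genes fell together and differ in size of change; each window runs from 100 bases before to 20 bases after the RefSeq start of the gene (GRCm38.p6), 5′ to 3′ on the gene's strand. Capitals mark runs of at least 10 bases that are found in all 4 windows.
Stfa2 (chr16:36408344-36408463, minus strand): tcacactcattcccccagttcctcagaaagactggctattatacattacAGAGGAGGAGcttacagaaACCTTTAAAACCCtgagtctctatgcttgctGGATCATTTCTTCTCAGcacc
Stfa3 (chr16:36455373-36455492, minus strand): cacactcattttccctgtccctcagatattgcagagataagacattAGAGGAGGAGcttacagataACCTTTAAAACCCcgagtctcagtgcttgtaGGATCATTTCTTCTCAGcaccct
Stfa1 (chr16:36277048-36277167, plus strand): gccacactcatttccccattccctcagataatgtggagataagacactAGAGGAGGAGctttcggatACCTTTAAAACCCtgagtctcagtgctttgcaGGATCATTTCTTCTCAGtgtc
Stfa2l1 (chr16:36156711-36156830, plus strand): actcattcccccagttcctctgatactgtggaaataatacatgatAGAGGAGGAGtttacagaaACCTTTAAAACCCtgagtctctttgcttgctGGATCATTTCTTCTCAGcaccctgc
The run ACCTTTAAAACCC lies within -36 to -20 of the start in the 4 genes and occurs, on either strand, in 8 of 27025 mouse promoter windows of 300 bases (0.0296%). The others that hold it are Cstdc4, Csta3, Cstdc5 and Gm7260. The run GGATCATTTCTTCTCAG spans the start and occurs in 6 of those windows (0.0222%), while AGAGGAGGAG occurs in 270 (0.999%). Over the full 300 bases the 4 promoters were 79.2% to 90.5% identical in pairs, with Stfa2 and Stfa2l1 the closest.

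In the list of stefins and protease inhibitors, edgeR called 8 of 13 tested members lower and none higher, and 3 estimates were above 0. The median log2 fold change was -1.76 against 0.02 over all genes (5.99% called). DESeq2 and edgeR with library size alone each called 8 lower and 1 higher. Of all 4944 genes these settings called 233 and 99 lower and 109 and 293 higher. Stfa2 measured 389, 231, 208 and 122 CPM in sham and 0, 24.9 and 0 CPM at day 14, with counts only in day 14 replicate 2, so the size of the fall rests on that library (-4.53 ± 0.70, edgeR adjusted p 0.002). BC100530, a further stefin A gene, measured 250.1, 149, 233 and 151 and 10.8, 24.9 and 0 CPM (-3.78 ± 0.51, edgeR adjusted p 0.0011). Gm5483, another member of the cluster, measured 2874, 1949, 2567 and 1668 CPM in sham and 719.8, 545 and 536 CPM at day 14 and fell by 1.92 on the log2 scale (edgeR adjusted p 0.002). Stfa2 and BC100530 were thus almost gone at day 14, while Gm5483 stayed detected in every library. Stfa1, Stfa2l1, Stfa3, Wfdc17 and Wfdc21 made up the rest of the 8. In sham replicate 4 Stfa3 had no counts, and it was the called member of the list whose groups overlapped. Members of the list that the main edgeR fit did not call were Slpi, the secretory leukocyte protease inhibitor (-0.29 on the log2 scale, edgeR adjusted p 0.55), and Cstb, Cst3, Gm5416 and Serpinb1a. Members called higher by DESeq2 or with library size alone are among these. Because stefin A transcripts are close copies, the share of reads given to each gene is uncertain. Their sum was not tested. The calls of Stfa2, BC100530 and Gm5483 held without any single library, with estimates for Stfa2 between -10.86 (without day 14 replicate 2) and -3.89 (without day 14 replicate 1) and for BC100530 down to -4.80 (without day 14 replicate 2), and those of Stfa1, Stfa2l1 and Stfa3 were lost without day 14 replicate 3 (edgeR adjusted p 0.057 to 0.081). Stfa3 lost its call also when sham replicate 1 or day 14 replicate 1 was left out (edgeR adjusted p 0.052 and 0.10).

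Of the 15 genes of the neutrophil identity list, 2 were called lower, where 3.80% of all tested genes were, and none higher. DESeq2 called 4 of them lower, where 233 of all 4944 genes were. Within Neu3 and within Neu5 alone 6 were called lower, where 104 of 1930 and 74 of 1253 genes were. Over all neutrophils, all 15 estimates were below 0 (median -0.73). With library size alone, 9 of 15 were below 0 and 2 were called lower, where 99 of all 4944 genes were. Retnlg, a resistin-like protein of granulocytes, fell from 26835, 15843, 34022 and 15282 CPM in sham to 5856, 9429 and 5953 CPM at day 14 (-1.70 ± 0.33, edgeR adjusted p 0.008). Wfdc21 fell from 11183, 6235, 6560.1 and 3256 to 1308, 3134 and 807 CPM (-1.96 ± 0.45, edgeR adjusted p 0.018). The calprotectin genes were lower without passing: S100a8 measured 206438, 111252, 147915 and 106735 CPM in sham and 70083, 96718 and 45644 CPM at day 14, and S100a9 134422, 66049, 97337 and 73658 and 43399.7, 67677 and 31200.2 CPM (edgeR adjusted p 0.078 and 0.12). Their values at day 14 were below the sham mean in all 3 libraries, with overlap for S100a9 in day 14 replicate 2. Slpi measured 5301, 3914, 6231 and 7076 and 4949, 4422 and 4425 CPM, and its sign turned, to 0.052, with library size alone. The calls of Retnlg and Wfdc21 were lost without day 14 replicate 1 or 3, and that of Wfdc21 also without sham replicate 1 (edgeR adjusted p 0.052 to 0.10).

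Granule genes, which are transcribed mainly in marrow precursors, gave 1 call of 21 over all neutrophils, lower, where 3.80% of all genes were called lower. None of 11 specific granule genes was called by edgeR (median 0.37, 4 at an unadjusted p under 0.05, 2 called lower by DESeq2). Of these, 6 could be tested within the authors' subtypes Neu3 and Neu5, described further down; over all neutrophils the same 6 had 4 estimates below 0, a median of -0.79 and no call. Within Neu3 4 of the 6 were called lower and within Neu5 3, and all 6 estimates were below 0 in both (medians -1.77 and -1.44, against 0.02 and 0.03 over all genes; 7.62% and 8.62% of genes called). The members called in Neu3 were Ngp, the neutrophilic granule protein (-4.22 ± 0.73), Cd177, a surface glycoprotein of neutrophils (-2.91 ± 0.50), Lcn2, the iron-sequestering lipocalin (-2.29 ± 0.42), and Pglyrp1, a peptidoglycan recognition protein (-1.24 ± 0.26), with edgeR adjusted p of 0.0010 to 0.0046. In Neu5, Cd177 (-3.52 ± 0.79), Lcn2 (-1.90 ± 0.34) and Pglyrp1 (-1.08 ± 0.28) were called. They were named after their values were seen. None was called by edgeR of the 3 azurophil genes tested (2 at an unadjusted p under 0.05, 0 by DESeq2). With library size alone edgeR called 1 of the 3 higher, where 293 of all 4944 genes were. Day 14 replicate 2 differed from the other libraries here. Camp, the cathelicidin gene, measured 175, 999, 157 and 0 CPM in sham and 315, 7298 and 317 CPM at day 14, and Ltf, lactoferrin, 113, 472, 52.8 and 0 and 131, 2615 and 147 CPM. Both were named after their values were seen. For both genes day 14 replicate 2 was the one day 14 library above all sham libraries, and stroke day 2 replicate 4 was likewise high, with 6094 CPM of Camp. In the gelatinase granule list, Mmp25, a membrane-anchored matrix metalloproteinase of leukocytes, fell from 450.2, 500.3, 354 and 265 to 122, 238 and 162 CPM (-1.17 ± 0.30, edgeR adjusted p 0.031), 1 of 7 members. That call was lost with library size alone, and when sham replicate 1 or 2 or day 14 replicate 1 or 3 was left out (edgeR adjusted p 0.069 to 0.16). None of 7 tested genes of the NADPH oxidase was called by edgeR or DESeq2, with 0 at an unadjusted p under 0.05.

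Several receptors that sense microbes and tissue damage fell. Of 17 innate and Fc receptors, 5 were called lower and none higher, with 15 estimates below 0 and a median of -0.50. Over all genes tested, 3.80% were called lower and the median was 0.02. Clec4e, the C-type lectin Mincle, measured 760.2, 611, 585 and 517 CPM in sham and 274, 259 and 309 CPM at day 14 (-1.15 ± 0.25, edgeR adjusted p 0.015). Pirb, an inhibitory receptor for MHC class I, measured 1347, 1082, 1197 and 1210.1 and 732, 732 and 585 CPM, and Fpr1, the receptor for formyl peptides, 808, 500.3, 799 and 622 and 292, 416 and 264 CPM. In each gene the sham libraries lay above the day 14 libraries. The log2 fold changes of Pirb and Fpr1 were -0.82 ± 0.20 and -1.07 ± 0.28 (edgeR adjusted p 0.025 and 0.03). Cd14, the coreceptor for lipopolysaccharide, fell by 1.93 on the log2 scale (edgeR adjusted p 0.031), and Tlr2 was also called. With library size alone 1 of the 17 was called and 10 estimates were below 0: Clec4e kept its call and the other 4 lost theirs. All 5 lost their calls when sham replicate 1, day 14 replicate 1 or day 14 replicate 3 was left out, Clec4e, Pirb and Cd14 also without day 14 replicate 2, Tlr2 without sham replicate 2 or 3 and Fpr1 without sham replicate 3 (edgeR adjusted p 0.0502 to 0.18).

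Cytokine genes and their receptors moved both ways. In the list of interleukin-1, TNF and inflammasome genes, 1 of 14 rose and 3 fell, with a median of -0.51 (all genes: 2.18% higher, 3.80% lower, median 0.02). Il1rn, the natural antagonist of the interleukin-1 receptor, rose from 113, 175, 179 and 130.3 CPM in sham to 293, 291 and 260.3 CPM at day 14 (0.92 ± 0.21, edgeR adjusted p 0.018). Casp4, the inflammatory caspase that senses lipopolysaccharide in the cytosol, fell from 250.1, 237, 153 and 151 to 61.2, 76.3 and 83 CPM (-1.47 ± 0.28, edgeR adjusted p 0.0078). Osm, oncostatin M, fell from 188, 126, 90.8 and 75.6 to 57.6, 24.9 and 26.4 CPM (-1.74 ± 0.46, edgeR adjusted p 0.034), and Il1rap, the accessory chain of the interleukin-1 receptor, fell by 1.35 (edgeR adjusted p 0.041). Il1b itself, named after its values were seen, differed by -0.04 (edgeR adjusted p 0.97). Casp4 lost its call without day 14 replicate 1 (edgeR adjusted p 0.052), and Il1rn, Osm and Il1rap lost theirs without sham replicate 1 or day 14 replicate 2 or 3, Il1rn and Il1rap also without day 14 replicate 1 and Osm and Il1rap without sham replicate 2 (edgeR adjusted p 0.056 to 0.17). Il1rap also missed the threshold without stroke day 2 replicate 3 (edgeR adjusted p 0.050). Of 11 genes for cytokine receptors and survival, Csf2rb2 and Csf2rb were called lower, where 3.80% of all genes were. Both encode beta chains that serve the interleukin-3 receptor. They are close copies, so reads could be split between them. Csf2rb2 measured 58.8, 49.2, 42.3 and 16.8 CPM in sham and 5.40, 10.9 and 3.77 CPM at day 14, and Csf2rb 710.2, 667, 528 and 361 and 315, 265 and 317 CPM (-2.59 and -0.94 on the log2 scale, edgeR adjusted p 0.008 and 0.026). The calls of Osm, Il1rap and Csf2rb were lost with library size alone. Csf2rb2 lost its call without day 14 replicate 1, and Csf2rb without sham replicate 1 or 2 or any day 14 library (edgeR adjusted p 0.052 to 0.11). No member was called among 8 chemokines and chemokine receptors, 12 NF-kB feedback genes, 14 transcription factors, 8 glucocorticoid response genes or 2 clock genes by edgeR, with 3, 1, 5, 2 and 1 of them at an unadjusted p under 0.05. DESeq2 called 2, 1, 1, 1 and 0 of them. With library size alone edgeR called 1, 1, 2, 1 and 0 of them, all higher, where 293 of all 4944 genes were. In the AP-1 and early response list, Atf3, 1 of the 24 genes above, was alone of 13 called in the main fit, where 2.18% of all genes were called higher. With library size alone 2 of the 13 were called higher, where 293 of all 4944 genes were.

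Interferon response genes moved both ways. Of 21 tested, 1 rose and 2 fell, and the median was 0.45 (all genes: 2.18% higher, 3.80% lower, median 0.02). With library size alone 5 rose and 1 fell, where 293 and 99 of all 4944 genes did. DESeq2 called 3 of the 21 higher and 3 lower, where 109 and 233 of all 4944 genes were. Within Neu5, 6 of 19 were called higher and 1 lower, where 34 and 74 of 1253 genes were. Within Neu3 2 of 7 were called lower, where 104 of 1930 genes were. Cmpk2, an interferon-induced nucleotide kinase of mitochondria, rose from 24.7, 25.4, 39.1 and 42 CPM in sham to 63, 90.3 and 67.9 CPM at day 14 (1.24 ± 0.32, edgeR adjusted p 0.029). The members that fell encode IFITM proteins, small membrane proteins that restrict the entry of viruses. Ifitm1 measured 14068, 8311, 9410.3 and 8929 CPM in sham and 1908, 1034 and 849 CPM at day 14 (-3.01 ± 0.41, edgeR adjusted p 0.0011). Ifitm3 measured 2448, 1139.7, 2313 and 1857 and 1067, 877 and 555 CPM (-1.22 ± 0.32, edgeR adjusted p 0.035), and Ifitm7, outside the list, 29.1, 20.4, 97.2 and 84 and 9.0, 9.35 and 0 CPM (-2.90 ± 0.67, edgeR adjusted p 0.019). Day 14 replicate 3 had no Ifitm7 count. Ifitm1 kept its call in each of the 11 fits that left out a library, while Ifitm3 and Ifitm7 lost theirs when any day 14 library was left out (edgeR adjusted p 0.061 to 0.18). Ifitm3 also lost it without sham replicate 1 or 3 and with library size alone, and Cmpk2 without sham replicate 1 or 2 or any day 14 library (edgeR adjusted p 0.064 to 0.13). Of classical interferon-stimulated genes named after their values were seen, Isg15 differed by -0.02 and Ifit3 by 1.85 (edgeR adjusted p 0.99 and 0.058).

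Of 7 lipid mediator genes, 2 rose and 1 fell, where 2.18% of all genes rose and 3.80% fell. Ptgs2, which encodes the prostaglandin synthase COX-2, had 0 counts in the 4 sham libraries and 25.2, 7.79 and 26.4 CPM at day 14, 26 counts in all, at least 21.3-fold higher (edgeR adjusted p 0.047). Its mean lay under the 20 CPM set for the 24 genes above, and its call was lost in 7 of the 10 fits without 1 library in which it was tested (edgeR adjusted p 0.063 to 0.15). Ptafr, the receptor of platelet-activating factor, rose from 119, 112, 145 and 151 CPM to 277, 231 and 283 CPM (1.01 ± 0.18, edgeR adjusted p 0.0053) and kept its call without any single library. Alox5ap, the protein that presents arachidonate to 5-lipoxygenase, fell from 8782, 4333, 6009.8 and 4277 to 2716, 2755 and 2512 CPM (-1.14 ± 0.30, edgeR adjusted p 0.036). The day 14 libraries of Alox5ap lay within a narrow range, and its call was lost without sham replicate 1 or 3 or any day 14 library (edgeR adjusted p 0.065 to 0.15).

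Of 17 glycolysis genes, 2 fell, where 3.80% of all tested genes did, and 15 estimates were below 0, with a median of -0.54 against 0.02 over all genes. Gapdh measured 915, 882, 1101 and 903 CPM in sham and 594, 525 and 192 CPM at day 14, and Tpi1 108, 110.2, 106 and 113 and 68.4, 59.2 and 30.2 CPM (edgeR adjusted p 0.032 and 0.041). With library size alone neither passed and 11 of 17 estimates were below 0, and both lost their calls without sham replicate 1 or 3 or day 14 replicate 2 or 3, and Tpi1 also without sham replicate 2 or 4, day 14 replicate 1 or stroke day 2 replicate 3 (edgeR adjusted p 0.051 to 0.17). None of 62 nuclear genes of oxidative phosphorylation was called by edgeR or DESeq2 (median 0.07, 8 at an unadjusted p under 0.05). With library size alone 6 were called higher, where 293 of all 4944 genes were. Of 8 tested mitochondrial genes 1 was called, lower, where 3.80% of all tested genes were called lower. This gene, mt-Co1, a subunit of cytochrome c oxidase, fell from 444, 517, 526 and 408 to 160.2, 179 and 67.9 CPM (-1.76 ± 0.26, edgeR adjusted p 0.002). Sham replicate 1 lay within the range of the other sham libraries for mt-Co1. In the adhesion and motility list, 1 of 18 was called, lower, where 3.80% of all tested genes were called lower. It was Vim, the intermediate filament vimentin, which fell from 1664, 1274, 764 and 857 to 444, 564 and 275 CPM (edgeR adjusted p 0.031). Of the 18 estimates 17 were below 0, and with library size alone 8 were. Dnaja1, an HSP40 cochaperone, rose from 136, 131, 115 and 84 to 158, 246 and 275 CPM (edgeR adjusted p 0.022). It was 1 of 5 heat shock genes, all with estimates above 0, where 2.18% of all genes were called higher. DESeq2 called 2 of the 5 higher and edgeR with library size alone 3, where 109 and 293 of all 4944 genes were. Vim lost its call without sham replicate 1 or 2 or day 14 replicate 1 or 3, and Dnaja1 without day 14 replicate 2 or 3 (edgeR adjusted p 0.060 to 0.16). The mt-Co1 call held without any single library. No gene of iron, haem and antioxidant defence (11 tested) or of proliferation (2 tested) was called by edgeR, with 2 and 0 at an unadjusted p under 0.05; DESeq2 called 1 and 0.

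Of the 296 called genes, 23 are held at more than 10 times the neutrophil level by another blood cell type. They include H2-K1, a classical MHC class I heavy chain, which rose from 181, 253, 324 and 441 CPM to 943, 475 and 626 CPM (1.22 ± 0.28, edgeR adjusted p 0.019). It was the single call among 13 MHC class I genes, where 2.18% of all genes were called higher. The 23 genes also include all 5 ribosomal protein genes that were called of 78 tested (6.41%, where 2.18% of all genes were called higher), each higher and each highest in T cells: Rpl21, Rpl5, Rps28, Rplp2 and Rpl36. Rpl21, for instance, measured 121, 102, 101 and 105 CPM in sham and 182, 195 and 207 CPM at day 14 (edgeR adjusted p 0.013). With library size alone 15 of the 78 were called higher, where 293 of all 4944 genes were. H2-K1 lost its call without sham replicate 1 or day 14 replicate 1 or 3, and Rpl21 without day 14 replicate 2 or 3 (edgeR adjusted p 0.052 to 0.12). The log2 fold change of H2-K1 was 2.09 within run code series 18, which holds 1 day 14 library. Within series 19 it was 0.54 (edgeR adjusted p 0.38). The other 4 ribosomal protein genes lost theirs without sham replicate 1 or day 14 replicate 3, and each in at least 1 more fit (edgeR adjusted p 0.050 to 0.21). The B cell marker sum was also higher at day 14, and most of it was Ighm, the 1 tested marker of the 8. Ighm, the heavy chain of IgM, was named after its values were seen. It measured 1.10, 0, 75 and 105 CPM in the sham neutrophils and 261, 142 and 132 CPM at day 14 without being called (edgeR adjusted p 0.19). Within Neu3 and within Neu5 Ighm was called higher, by 2.14 ± 0.62 and 3.18 ± 0.70 on the log2 scale (edgeR adjusted p 0.037 and 0.0026). The part of RNA from other cells in these rises was not tested. The share of all tested genes above the limit of 10 times is not given here. The 24 genes above were chosen to lie below that limit, some of them closely: over all blood libraries, B cells held 289 CPM of Tec against 29.0 CPM in neutrophils and 431 against 50.9 CPM of Mtdh, NK cells 451 against 49.5 CPM of Eif3a, and B cells 140.0 against 21.6 CPM of Aim2. Their ratios were 9.95, 8.45, 9.10 and 6.49, and that of Pmaip1, highest in dendritic cells, was 6.23. The part of RNA from these cells in the rises of those 5 genes was not tested either.

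**Figure D3:**
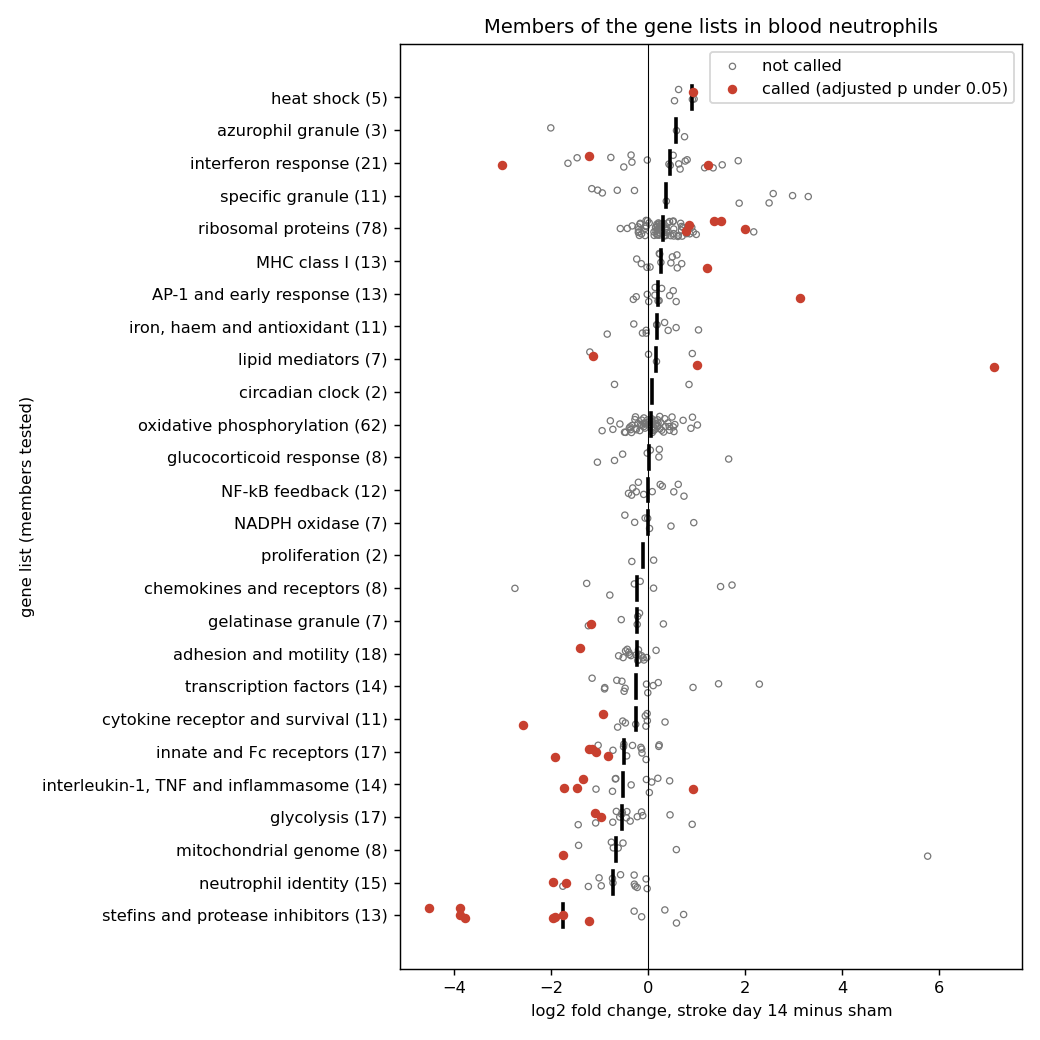
Log2 fold change of stroke day 14 minus sham for each tested member of the gene lists, with called members filled in red, other members open and a bar at each list's median. The lists are ordered by median, from stefins and protease inhibitors (-1.76) to heat shock genes (0.91), and most members of most lists were not called.

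The stroke libraries of day 2 gave a reference within the stroke arm. Between stroke day 14 and stroke day 2, 232 of 4944 genes were called (4.69%; edgeR adjusted p under 0.05), 69 higher (1.40%) and 163 lower (3.30%). This comparison shares the day 14 libraries with the one against sham, and the 24 genes above were chosen for their level in them, so calls among the 24 are no separate evidence. Pgp, Mpzl3, Zfp53, Ninj1 and Ifitm7 were not called in it. Wfdc17 measured 25126, 8996, 13208 and 12288 CPM in the 4 libraries of stroke day 2, and Ifitm1 18084, 5608, 7413 and 10179 CPM. These lay around the sham values. Pmaip1 measured 4.56, 23.4, 29.7 and 6.46 CPM at stroke day 2, Atf3 29.8, 62.9, 12.7 and 11.3 CPM and Prok2 180.3, 73.7, 144 and 142 CPM. For Pmaip1, Atf3 and Prok2 the mean at stroke day 2 lay between those of sham and day 14. None was called at stroke day 2 against sham (edgeR adjusted p 0.997 each). The log2 fold changes there were 1.46 ± 0.78, 1.09 ± 0.50 and -1.09 ± 0.55.

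Monocytes from the same libraries served as a comparison within the blood. The change from sham to day 14 differed between neutrophils and monocytes in 177 of 6985 genes tested (2.53%; edgeR interaction with the library as a block), 87 higher in neutrophils relative to monocytes (1.25%) and 90 lower (1.29%). With library size alone this split was 306 to 41 of 347 genes. Of the 289 genes called in neutrophils that could be tested here, 104 (36.0%) differed between the cell types. These genes were chosen for their change in neutrophils, which is part of the difference, so this share is a description. In monocytes themselves 217 of them were tested and 4 (1.84%) were called, against 17 of 6440 genes (0.264%) over all. Pmaip1 measured 82, 102, 20.3 and 57.6 CPM in sham monocytes and 85.5, 85.1 and 71.3 CPM at day 14, so that monocytes held it in both groups. The neutrophil change exceeded that of monocytes by 4.57 ± 0.63 on the log2 scale (edgeR adjusted p 0.00019). Aim2 measured 125, 171, 110.0 and 117 CPM in sham monocytes and 195, 133 and 171 CPM at day 14, a difference of the changes of 2.07 ± 0.35 (edgeR adjusted p 0.0019). Wfdc17 was lower in monocytes too, with 1628, 1571, 3148 and 2283 CPM in sham and 1140.3, 1096 and 767 CPM at day 14, without passing the test there (log2 fold change -1.10, edgeR adjusted p 0.19). Its fall in neutrophils was larger by 2.93 ± 0.37 (edgeR adjusted p 5.5e-05). The identity gene Wfdc21, outside the 24 genes, went the other way. It was called lower in monocytes (log2 fold change -9.53, edgeR adjusted p 0.0014), a fall larger than in neutrophils by 7.73 ± 0.78 (edgeR adjusted p 8.5e-06). Over all blood libraries monocytes held 150 CPM of Wfdc21 against 6329 CPM in neutrophils. The part of RNA from neutrophils in the monocyte values was not tested. Atf3, Mtdh, Pgp, Eif3a and Ninj1 also differed between the cell types, as did Ifitm1, which was nearly absent from monocytes, with 0 to 2.22 CPM in sham and 0 to 17.8 CPM at day 14. The Ifitm1 difference rested on day 14 replicate 3, the one day 14 library with monocyte counts (edgeR adjusted p 0.93 without it), and was lost without sham replicate 2 or 3 too. The Pgp difference was also lost without day 14 replicate 3 (edgeR adjusted p 0.052). For Galnt6 and Igfbp6 the monocyte estimates pointed the same way (-2.02 and -2.46), and a difference between cell types was not detected (edgeR adjusted p 0.27 and 0.51). Prok2, Ggt1 and Stfa2 had almost no counts in monocytes, and their difference could not be judged.

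**Figure D4:**
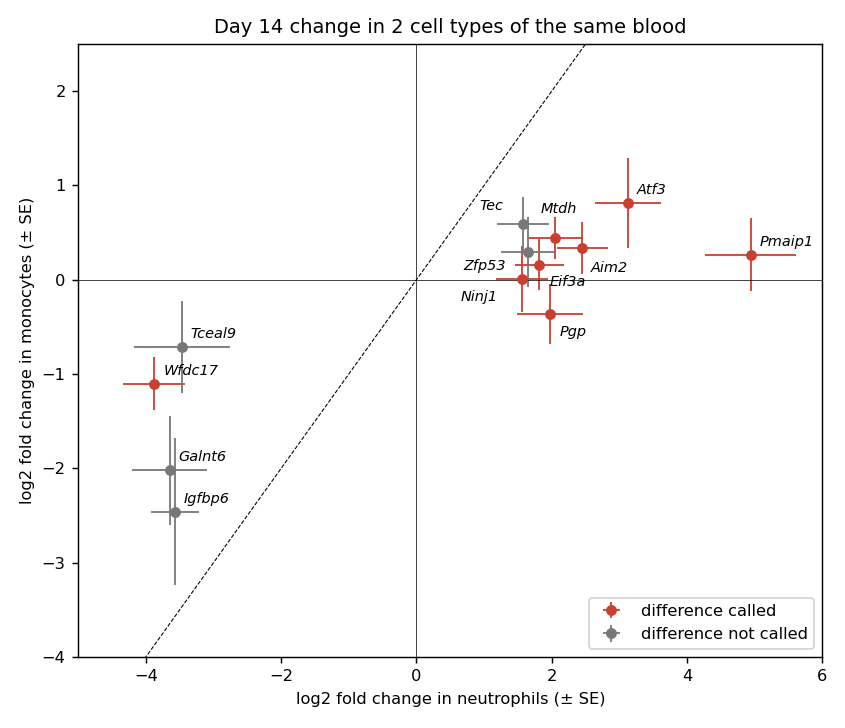
Log2 fold change of stroke day 14 minus sham in neutrophils (horizontal) and in monocytes of the same libraries (vertical), with bars of ± 1 SE, for the 13 of the 24 genes that were tested in monocytes. Points on the dashed line would have equal change; red genes, among them Pmaip1 and Wfdc17, had a called difference between the cell types.

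The authors divide blood neutrophils into 6 subtypes, Neu1 to Neu6, and their shares differed between groups. Neu3 held 987 of 1306, 709 of 1110 and 415 of 506 neutrophils in the 3 day 14 libraries (75.6%, 63.9% and 82.0%). In sham it held 72 of 2250, 12 of 1241, 61 of 1525 and 140 of 435 (3.20%, 0.967%, 4.0% and 32.2%), and 2.17% to 9.60% at stroke day 2. Sham replicate 4 had the highest Neu3 share outside day 14, and it also had the sham level nearest to day 14 for Prok2, Ggt1 and Stfa2. The subtypes were made by clustering on the same genes, so these shares are a description, and a change within cells and a change in the mix of cells cannot be told apart by them. Within Neu3 alone, with 3 sham and 3 day 14 libraries, since sham replicate 2 held under 20 such cells, 147 of 1930 tested genes were called (7.62%). All 165 neutrophil-called genes that could be tested in Neu3 kept their direction. Of the 24 genes, 11 could be tested in Neu3 and 10 were called, Tec being the exception. Most day 14 neutrophils from which these genes were chosen are Neu3 cells, so these directions and calls are no separate evidence. Sham replicate 4 gave 140 of the sham cells in this fit, more than either other sham library. Within Neu3 the log2 fold change was -3.46 ± 0.51 for Wfdc17, -2.38 ± 0.38 for Ifitm1 and 2.85 ± 0.52 for Pmaip1. S100a8 and S100a9 were called lower within Neu3 (log2 fold change -1.33 and -1.30, edgeR adjusted p 0.036 and 0.037), 2 of 6 called of the 15 identity genes there, none higher. The B cell marker Ighm was called higher within Neu3, as given above, and its part in these calls was not tested. Neu5, which made up 4.35% to 16.6% of sham neutrophils and 8.70% to 12.7% at day 14, gave 108 calls of 1253 (8.62%). The other subtypes, with few day 14 cells, gave between 0 (0.00%, Neu6) and 13 (1.18%, Neu4), with 1 (0.0296%) in Neu1 and 4 (0.135%) in Neu2.

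**Figure D5:**
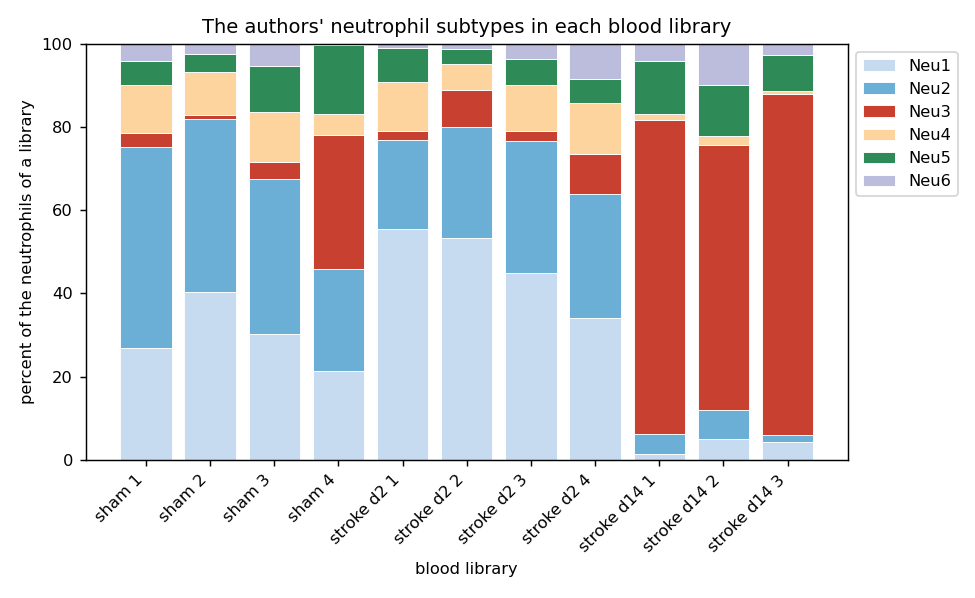
Share of the authors' subtypes Neu1 to Neu6 among the neutrophils of each blood library, in percent, stacked to 100. Neu3 (red) fills 63.9% to 82.0% of the bars of stroke day 14 and at most 32.2% of the other bars.

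Neutrophils made up 35.6%, 26.1%, 48.5% and 12.4% of the cells in the sham libraries and 20.9%, 22.4% and 11.4% at day 14. The means were 30.6% ± 15.2 (SD, n = 4) and 18.2% ± 5.97 (SD, n = 3), and the groups overlapped (exact two-sided permutation test, p = 0.229, where 0.0571 is the smallest p possible). The median neutrophil held 901, 414, 638 and 513 counts in sham and 345, 452 and 391 counts at day 14, which also overlapped (exact two-sided permutation p = 0.114). Depth per cell was thus lower on average at day 14, and its part in the results was not tested beyond a sum over cells with at least 300 counts, which gave 278 calls (5.80%). In summed counts, fewer cells with a transcript and less of it per cell cannot be told apart.

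Promoter sequence of the called genes was counted for 5 motifs, in the 300 bases from 250 before to 50 after the RefSeq start, on both strands. A promoter was found for 79 of the 108 higher genes, 147 of the 188 lower genes and 3829 of all 4944. The AP-1 letters TGANTCA occurred in 5.06% of the promoters of higher genes, 11.6% of those of lower genes and 4.86% of those of all tested genes, against 7.93% of all 27025 promoters. Lower genes with these letters include Prok2, Stfa3 and Ifitm3. The C/EBP letters TTGCNNAA, of a factor family that acts in granulocyte maturation, occurred in 10.1%, 11.6%, 9.09% and 10.8% of the same groups, Retnlg and Stfa1 among them. An interferon response motif, GAAA followed after any 2 bases by GAAA, occurred in 8.86%, 4.76%, 4.10% and 3.49%. The TATA letters TATAAA occurred in 11.4%, 12.9%, 7.29% and 14.2%, Prok2, Igfbp6, Wfdc17, Fpr1 and Vim among the lower genes, and the cyclic AMP response letters TGACGTCA in 3.80%, 1.36%, 3.66% and 1.88%. Matches of different motifs may overlap, and a match of letters is not a binding site.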

How the data were processed

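Drop-seq libraries of mouse blood were analysed from the authors' deposited tables of values per gene and cell, which are estimated counts that are not whole numbers; the counting step is not given in the sources used here. The authors' deposited metadata give each cell's type and subtype and its percent of mitochondrial counts. The genome build mm10 and Seurat are named, per the submitters' processing notes. Counts were summed over the cells of a type in each library and rounded. Genes were filtered with filterByExpr, scaled with TMM and tested with edgeR 4.0.16 (R 4.3.3) by the quasi-likelihood test, with sham, stroke day 2 and stroke day 14 (11 libraries) in 1 fit and Benjamini-Hochberg adjustment over all genes tested; calls had an adjusted p under 0.05. The comparison with monocytes was an interaction with the library as a block. A library apiece gave the shares and depths, compared by exact permutation tests. Alternatives included DESeq2 1.42.0 and leaving out each library; Scrublet (scanpy 1.11.5) marked at most 0.169% of cells, so doublets were not removed in the main test and a fit without the marked cells was an alternative. The ± values of fold changes are standard errors. They were derived as the absolute log2 fold change divided by the square root of the F statistic of the quasi-likelihood test. Lower-bound folds use a floor of 3 counts over the group, and counting intervals are exact and cover counting error only.

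Genes named in full are the 12 highest and 12 lowest called fold changes with a mean of at least 20 CPM and no overlap of libraries, without predicted, mitochondrial, ribosomal, haemoglobin, immunoglobulin and T cell receptor genes and genes that another blood cell type holds at over 10 times the neutrophil level; then up to 4 called members of each list by adjusted p, and the 4 most abundant identity genes. The comparison, the genes and the lists were chosen with earlier results of these data known. In counts simulated from these libraries with known changes (4553 genes), the neutrophil test called 35.1% of genes changed by 1 and 89.0% of genes changed by 2 on the log2 scale, and 0.160% of unchanged genes. The simulated libraries were independent and shared a common profile, and rises and falls were set in equal number. These rates hold for that setting and may differ for the real libraries. Promoter sequences and gene positions are from RefSeq (GRCm38.p6).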

Additional observations from a re-analysis of the deposited data

Results flagged for a closer look

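In 2 of 65 groups of library values tested, 1 library stood far from the rest of its group: Eif3a in sham replicate 2 (71.2 CPM) and Gapdh in sham replicate 3 (1101 CPM). Chance flags about 1 group in 20.

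The change from sham to day 14 differed between neutrophils and monocytes (edgeR interaction, adjusted p under 0.05) for 9 of the 24 genes. On the log2 scale the neutrophil change minus the monocyte change was 4.57 for Pmaip1, 2.35 for Pgp, 2.24 for Atf3, 2.07 for Aim2, 1.70 for Eif3a, 1.60 for Ninj1 and 1.55 for Mtdh. It was -2.93 for Wfdc17 and -5.72 for Ifitm1, the last on few monocyte counts.

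The time points after stroke differed for 19 of the 24 genes (edgeR, adjusted p under 0.05), which were chosen for their day 14 level against sham. Stroke day 14 minus stroke day 2 was 3.48 for Pmaip1, 2.46 for Aim2, 2.03 for Atf3, 1.75 for Csf1, 1.71 for Ctc1, 1.67 for Mtdh, 1.60 for Tec and 1.36 for Eif3a on the log2 scale. Lower at day 14 were Wfdc17 (-3.94), Igfbp6 (-3.79), Galnt6 (-3.40), Tceal9 (-3.34), Pam (-3.17), Ifitm1 (-3.03), Cmah (-2.39), Stfa2 (-4.53) and Ggt1 (-4.90). The fitted values of Prok2 (-9.98) and Rhov (-7.88) depend on the prior count, since both were at 0 in every day 14 library, and those of Ggt1 and Stfa2 rest on the counts of 1 day 14 library each.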

How the results depend on the processing

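The test called 296 genes. Counts stayed within 1.5 times of that with DESeq2 (342), library size alone (392), only the 7 libraries (291), counts rounded up (302), cells of at least 300 counts (278) and the run code as a term (308). They did so too with cells below the 95th percentile of counts (342) and without ribosomal, mitochondrial and haemoglobin genes (296), both chosen after seeing the data. Leaving out the cells that Scrublet marked, at most 3 neutrophils per library, gave 293, without Rps28. Without the filter on low counts 487 genes were called. Leaving out 1 library gave 83 to 359 genes. The subtypes Neu1 to Neu6 alone gave 1, 4, 147, 13, 108 and 0 genes, and the run code series 18 and 19 alone, also chosen after seeing the data, 115 and 80; series 18 has 1 day 14 library, assumed to vary like the other groups. Within series 19, 14 of the 24 genes were called, and Aim2, Ctc1, Mpzl3, Mtdh, Ninj1, Pam, Pgp, Tceal9, Tec and Zfp53 were not. Fewer cells or libraries enter the fits of subtypes and of run code series. The difference from monocytes, 177 genes, became 347 with library size alone, 87 with DESeq2, 265 without the filter and 90 to 222 without 1 library; the cause was not tested. For the neutrophil share, the difference of -12.4 percentage points became -18.5 to -6.46 without 1 library, and for the median depth, -220.5 counts became -288 to -126.

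Replicate numbers did not pair the libraries as a whole: same-numbered libraries correlated at -0.20 to 0.46, over 0.1 in 4 of 10 pairs, and 5 of 11 libraries correlated best with their own number. Sham and stroke day 2 carry run codes equal up to the last 2 digits in replicates 1 and 2, which were the pairs of highest correlation (0.46 and 0.38); day 14 libraries share no such code. With the replicate block 338 genes were called at day 14, and Fpr1, Tlr2, Tpi1, Rplp2 and Rpl36 were not. With the shared run code as a term, chosen after seeing the data, 275 were called, and Pgp, Zfp53, Tec, Cmpk2, Osm, Il1rap, Tlr2, Csf2rb, Gapdh, Rplp2 and Rpl36 were not. At day 2 no gene was called by edgeR with the replicate block (245 at an unadjusted p under 0.05), with the shared run code (293) or with library size alone (157), nor by DESeq2.

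Of the 59 called genes that are named, 19 kept their call without any single library and 40 in every other setting outside the subtypes and run code series. Estimates that changed sign were those of Tec (-0.30), Il1rn (-0.50) and Dnaja1 (-0.044) in Neu1, Stfa1 (0.87) and Ptafr (-0.48) in Neu2, Stfa1 (0.32) and Rplp2 (-0.47) in Neu4 and Pirb (0.10) in Neu6, and the uncalled Slpi with library size alone (0.052) and in run code series 18 (0.061). The cause was not tested. Genes near 20 CPM rest on few counts in the shallowest library (212122 counts).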

Other observations

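Further families, chosen after their values were seen, are given as values. Of all tested genes 3.80% were called lower and 2.18% higher. Of 5 Ifitm genes tested, all 5 were called lower at day 14 (median log2 fold change -2.24), including Ifitm2 (-1.29 ± 0.28, SE; edgeR adjusted p 0.016) and Ifitm6 (-2.24 ± 0.61, edgeR adjusted p 0.041). All 3 Wfdc genes fell, with Wfdc18 at 32.5 ± 10.4 CPM (SD, n = 4) in sham and 3.20 ± 4.08 CPM (SD, n = 3) at day 14 (edgeR adjusted p 0.0095). Near-identical copies make the split of reads between Ifitm genes uncertain.

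Of 7 Klra, Lilr and Pir genes, which include inhibitory and paired receptors of myeloid cells, 5 were called lower and none higher, where 3.80% of all tested genes were called lower; the family was chosen after its values were seen. Lilr4b measured 1649 ± 84.0 CPM (SD, n = 4) in sham and 641 ± 304 CPM (SD, n = 3) at day 14 (-1.36 on the log2 scale, edgeR adjusted p 0.0061). Klra17 measured 273 ± 5.56 CPM in sham and 144 ± 19.7 CPM at day 14 (-0.91, edgeR adjusted p 0.016). The CD300 family split: Cd300c2 rose by 1.25 ± 0.23 (SE) and Cd300a by 0.95 ± 0.23, while Cd300lf fell by 0.90 ± 0.21 (edgeR adjusted p 0.0065, 0.021 and 0.019). Cd300lb and Cd300ld were not called (0.43 and -0.01).

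Cathepsins, the proteases that stefins can inhibit, moved both ways as well. Of 9 tested, where 3.80% of all genes fell and 2.18% rose, Ctsb and Ctsl fell by 1.20 and 1.31 and Ctsz rose by 0.96 on the log2 scale (edgeR adjusted p 0.0096, 0.021 and 0.036). Ctsb measured 308 ± 61.7 CPM (SD, n = 4) in sham and 134 ± 48.0 CPM (SD, n = 3) at day 14.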
